A study of Mus musculus with 3 samples.

Results

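Fzd4 and Fzd6 are 2 of the 8 frizzled receptors, and 2 of the 125 targets in all, that had a molecule in targeted single-cell RNA sequencing of mouse bone marrow (BM). Both were chosen by their levels, which stand high in endothelial cells (ECs) of these same libraries. What follows therefore describes that pattern, and no test is given for it. All molecules of the symbols Fzd4 and Fzd6 were counted, which gave 474, 130 and 452 molecules of Fzd4 and 2495, 1830 and 2700 of Fzd6 in the library E18.5 EC, then E18.5 BM cells, then Adult BM cells.

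Frizzleds are receptors with 7 membrane-spanning segments that bind Wnt proteins outside the cell and pass the signal to Dishevelled inside it. With Lrp5 or Lrp6 as co-receptor they stabilise β-catenin, and without it they act on cell polarity and movement. Fzd4 is best known as the receptor for norrin, a ligand that is not a Wnt, in the growth and barrier function of retinal vessels. Fzd6 is best known for planar cell polarity in skin and hair, and in several settings it dampens β-catenin signalling.

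The libraries came from C57/B6 wildtype mice, and several animals were pooled into each. E18.5 EC held ECs sorted from E18.5 embryos, by CD31 with endomucin according to the series design and by CD31 alone according to the methods of the study. Arterial ECs are low in endomucin, so the kinds of EC in that library depend on the gate used. The other libraries, E18.5 BM cells plus Adult BM cells, were marrow from which lineage antibodies on beads had taken mature haematopoietic cells, and the adult age was not given in the labels. For adult marrow the methods describe further depletion steps, CD117 and CD45 among them, under other libraries of the study.

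With 1 library per group, no comparison across samples could be tested. A level is the number of molecules of a target per 10000 molecules of the whole panel in the same cells. Each interval in parentheses is a 95% interval that covers counting error only. Stage, preparation, depth and library cannot be told apart between the groups. In the order E18.5 EC, E18.5 BM cells, Adult BM cells, there were 4043, 12884 and 7948 barcodes, with 432987, 1837897 and 6304495 molecules. The median cell kept had 83, 97 and 242 molecules. Between 38 and 113 barcodes were shared by each pair of libraries.

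The Fzd4 amplicon lay on transcript ENSMUST00000058755.4, from a gene at GRCm38 chromosome 7, 89404355 to 89413134 on the plus strand. Its 2 exons make a transcript of 6720 bases, of which 4774 are 3′ untranslated region, and a protein of 537 residues. The Fzd6 amplicon lay on ENSMUST00000022906.7, from chromosome 15, 39006333 to 39038186 on the plus strand. This transcript has 7 exons, 4081 bases, a 3′ untranslated region of 1632 bases and a coding sequence for 709 residues. Of the Fzd4 molecules, 1055 came from an amplicon named for the polyadenylated end and 1 from one named for the reference end, while all 7025 of Fzd6 came from 1 amplicon. Amplicons differ in efficiency, so the level of Fzd6 was not compared with that of Fzd4, and only the change of their ratio between cells was read.

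Classes of cells were set from clusters built without any Wnt pathway gene, so that Fzd4 and Fzd6 did not shape them. E18.5 EC held 2699 endothelial-like cells and 983 Ptprc cells, a class named after the gene of the leukocyte protein CD45. E18.5 BM cells held 406 endothelial-like, 1337 mesenchymal-like and 10781 Ptprc cells. Adult BM cells held 1679 endothelial-like, 3367 mesenchymal-like, 434 chondrocyte-like and 1736 Ptprc cells. The endothelial label was set from a list of 26 markers, of which 10 were seen. Levels of these 10 describe the class and do not check its label. Their summed level in endothelial-like cells was 4839, 4598 and 3269 per 10000, against 531, 157 and 325 in Ptprc cells. The summed level of 7 blood markers in endothelial-like cells was 132, 268 and 1078, mostly Srgn in the adult library, and Ptprc alone was at 5.0, 35.3 and 3.9. The part of these blood transcripts in the frizzled levels was not tested.

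Both frizzleds were higher in endothelial-like cells than in Ptprc cells of every library. Fzd4 numbered 426 molecules in endothelial-like cells of E18.5 EC, a level of 17.3 per 10000 (15.7 to 19.1), and 14 molecules in Ptprc cells, a level of 0.918 (0.502 to 1.54). The levels in E18.5 BM cells were 9.65 (6.83 to 13.2) from 38 molecules against 0.383 (0.282 to 0.508) from 48. Those in Adult BM cells were 12.02 (10.7 to 13.5) from 293 molecules against 1.001 (0.603 to 1.56) from 19. The ratios were 18.9 (11.1 to 34.9), 25.2 (16.0 to 39.4) and 12.01 (7.56 to 20.2). Of all Fzd4 molecules, endothelial-like cells held 89.9% in the sorted library, 64.8% in the adult one and 29.2% in marrow of E18.5.

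Fzd6 was also higher in endothelial-like than in Ptprc cells, by a smaller ratio than Fzd4 in both marrow libraries. In E18.5 EC its level was 90.3 (86.6 to 94.1) in endothelial-like cells, from 2217 molecules, and 6.36 (5.16 to 7.76) in Ptprc cells, from 97. The same levels were 46.7 (40.2 to 54.0) and 11.5 (10.9 to 12.1) in E18.5 BM cells, from 184 and 1444 molecules. Adult BM cells had it at 76.1 (72.7 to 79.6) against 14.4 (12.7 to 16.2), from 1854 and 273 molecules. The ratios were 14.2 (11.6 to 17.6), 4.05 (3.46 to 4.73) and 5.29 (4.66 to 6.03). Ptprc cells, the largest class of E18.5 BM cells, held 78.9% of all Fzd6 molecules there, and endothelial-like cells held 10.1%.

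Side by side, the endothelial-like level of both genes was highest in E18.5 EC and lowest in E18.5 BM cells. For Fzd4 the intervals of the marrow libraries overlapped, and for Fzd6 no pair of the 3 did. The 2 libraries of E18.5 differed from each other by more than either did from the adult library, so no order by stage was read. The number of Fzd6 molecules per Fzd4 molecule in endothelial-like cells varied less, at 5.20, 4.84 and 6.33.

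**Figure D1:**
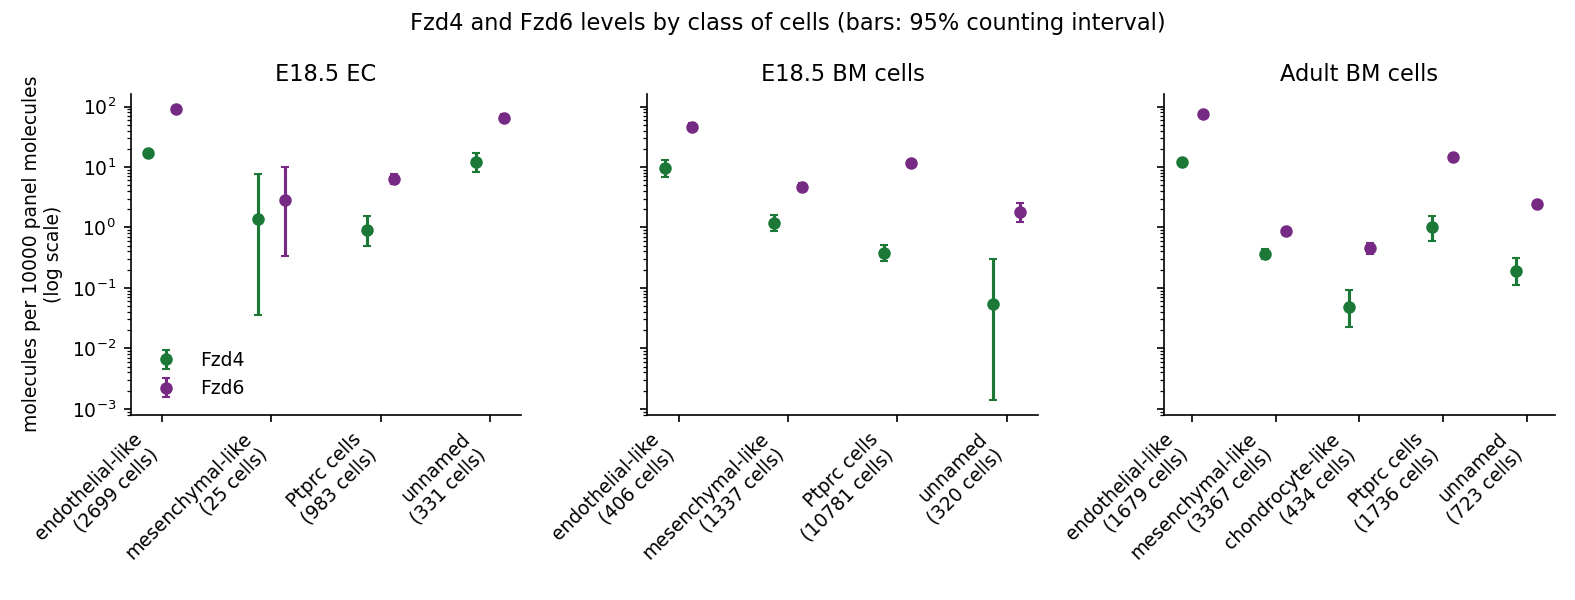
Level of Fzd4 (green) and Fzd6 (purple) in each class of cells of the 3 libraries, in molecules per 10000 panel molecules on a log axis, with bars for the 95% counting interval. Both points stand highest over endothelial-like cells in each library, and the unnamed cells of E18.5 EC, a single cluster with Pecam1 in its cells, stand near them, with Fzd6 at 65.1.

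These ratios depended on how molecules were counted. The correction used here (distribution-based error correction, DBEC) kept 57.1% of the Fzd4 molecules that a milder correction (recursive substitution error correction, RSEC) left in endothelial-like cells of E18.5 EC, but 11.97% of those in its Ptprc cells. For Fzd6 it kept 43.3% and 10.7%. With RSEC-adjusted molecules the ratios in E18.5 EC were 3.79 for Fzd4 and 3.37 for Fzd6, and both genes remained higher in endothelial-like cells in all 3 libraries.

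Shares of cells with a molecule were read after thinning every cell to 50 molecules. This left out 667 of the 2699 endothelial-like cells of E18.5 EC. Fzd4 was then seen in 8.86% of them (7.66 to 10.2) and in 0.221% of Ptprc cells (0.0267 to 0.795), against unthinned shares of 14.0% at a median depth of 74 and 1.42% at 122. Fzd6 was seen in 33.2% (31.2 to 35.3) and 2.54% (1.62 to 3.79), against 46.4% and 6.71% unthinned. For the adult library the thinned shares were 6.29% and 0.367% for Fzd4 and 31.7% and 7.33% for Fzd6, against unthinned shares of 15.1% and 0.922%, and 56.1% and 13.1%. They were 5.81% and 0.2196% for Fzd4 and 20.5% and 6.19% for Fzd6 in E18.5 BM cells, against 9.11% and 0.436%, and 31.3% and 11.01%. Endothelial-like cells thus had either gene more often at equal depth. The highest number of molecules in 1 endothelial-like cell was 3 for Fzd4, in E18.5 EC and in the adult, and 18 for Fzd6, in the adult.

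Whether the 2 genes were seen in the same endothelial-like cells was read with and without thinning. In E18.5 EC, Fzd6 was seen in 209 of 379 cells with Fzd4 (49.98% to 60.2%) and in 1044 of 2320 cells without it (42.96% to 47.1%), but the former had a median of 95 molecules and the latter 72. After thinning the shares were 33.3% (26.5 to 40.7) of 180 cells and 33.2% (31.1 to 35.4) of 1852. Adult cells with and without Fzd4 had Fzd6 in 69.7% (63.6 to 75.3) and 53.7% (51.1 to 56.3) before thinning, and in 37 of 100 (27.6% to 47.2%) and 31.4% (29.04 to 33.8) after it. In marrow of E18.5 the thinned shares were 5 of 19 cells (9.15% to 51.2%) and 20.1% (15.8 to 25.05). The thinned intervals overlapped in each library, so a difference was not detectable at this depth.

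Stromal and cartilage cells had low levels of both genes per panel molecule, as counted after DBEC. DBEC also kept less of the RSEC-adjusted molecules in these classes than in endothelial-like cells. In the adult it kept 11.4% of Fzd6 in mesenchymal-like, 7.95% in chondrocyte-like and 60.5% in endothelial-like cells. For Fzd4 it kept 25%, 6.77% and 65.1%. By molecules, mesenchymal-like cells held 33.1% of all Fzd4 and 9.23% of all Fzd6 of E18.5 BM cells, and 25.2% and 10.2% in the adult. Mesenchymal-like cells of E18.5 BM cells had Fzd4 at 1.19 (0.863 to 1.61), from 43 molecules, and Fzd6 at 4.69 (4.01 to 5.45) from 169. The endothelial-like level was higher by 8.09-fold (5.09 to 12.8) for Fzd4 and 9.97-fold (8.04 to 12.4) for Fzd6. Nearly all of this stromal Fzd6 lay in the cluster led by Postn, Ccn3 and Aspn, at 5.56 (4.75 to 6.47) from 167 molecules. Ptprc was seen in 16.2% of its cells, and the part of blood transcripts in this level was not tested. The cluster led by the smooth muscle and pericyte genes Acta2, Rgs5 and Tagln had 2 molecules of Fzd6 in 170 cells, with Ptprc in 14.1% of them.

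The mesenchymal-like class of Adult BM cells as a whole stood at 0.365 (0.301 to 0.438) for Fzd4 and 0.880 (0.779 to 0.990) for Fzd6. The ratio of endothelial-like to mesenchymal-like cells was 33.0 (26.5 to 41.3) for Fzd4 and 86.5 (76.1 to 98.5) for Fzd6. Much of the denominator came from 313 cells led by the osteocalcin genes Bglap and Bglap2, with a median of 5547 molecules each, 1 molecule of Fzd4 and 25 of Fzd6 in all. Per cell instead of per panel molecule, the ratios were 5.15 and 13.5. The 1699 cells led by Fbln5, Cp and Notch3 had Fzd4 at 0.506 (0.358 to 0.694) and Fzd6 at 0.107 (0.0460 to 0.210), from 38 and 8 molecules, and the 739 led by Cp and Fbln5 had 12 and 9. The cells led by Ccn3, Aspn and S100a4 had Fzd6 at 3.17 (2.23 to 4.37).

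The adult cluster of 306 cells led by Acta2, Rgs5 and Tagln was the highest of the stromal clusters, with Fzd4 at 3.18 (2.38 to 4.17) and Fzd6 at 11.99 (10.4 to 13.8). Of its cells 64.4% also had Pecam1, the gene of the endothelial protein CD31, and the part of endothelial transcripts in these levels was not tested. Without this cluster the ratios to mesenchymal-like cells were 57.4 for Fzd4 and 285 for Fzd6.

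Chondrocyte-like cells, present in the adult library, were the lowest class there per panel molecule. Their 434 cells were very deep, with a median of 3980.5 panel molecules, and held 9 molecules of Fzd4, a level of 0.0484 (0.0221 to 0.0920), and 84 of Fzd6, a level of 0.452 (0.361 to 0.560). With RSEC these cells held 133 molecules of Fzd4 and 1056 of Fzd6. Unthinned, 16.1% of these cells had Fzd6, a share above that of adult Ptprc cells. After thinning none of 434 did, which allows a share of up to 0.691% by a limit of 3 cells and of 0.846% by the exact interval. Per cell the order turned, with 0.194 molecules of Fzd6 against 0.157 in Ptprc and 0.0817 in mesenchymal-like cells of the adult, and 0.0207 of Fzd4 against 0.0109 and 0.0339. Another 169 unnamed cells led by the cartilage genes Col10a1, Panx3 and Mmp13, in E18.5 BM cells, held 1 molecule of Fzd4 and 16 of Fzd6, a level of 0.952 (0.544 to 1.55).

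Endothelial-like cells were split by 4 markers, each taken alone, with the marker counted as present from 1 molecule. Gja4 encodes connexin 37, a gap junction protein of arterial ECs, and Stab1 encodes stabilin-1, a scavenger receptor of sinusoidal ECs. Vwf encodes von Willebrand factor, a clotting protein of ECs and megakaryocytes, and Apln encodes apelin, a peptide of sprouting ECs. A cell could count under several markers, and in E18.5 EC most did, since 2334 of the 2699 cells had Stab1 and 1889 had Apln. The splits and the clusters used these same cells, so they describe 1 pattern in several ways.

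Fzd6 was higher in cells with Gja4 in every library. In E18.5 EC its level was 129.8 (120.5 to 139.5) in 429 cells with Gja4 and 78.6 (74.6 to 82.7) in 2270 without, a ratio of 1.65 (1.51 to 1.81). For E18.5 BM cells the levels were 79.2 (59.7 to 103) in 63 cells and 39.8 (33.2 to 47.2) in 343, and the ratio was 1.99 (1.43 to 2.75). For Adult BM cells they were 93.04 (87.5 to 98.8) in 649 cells and 61.3 (57.1 to 65.7) in 1030, and the ratio was 1.52 (1.38 to 1.67). None of these pairs of intervals overlapped. After thinning the share of cells with Fzd6 in E18.5 EC was 46.5% with Gja4 and 30.1% without, and in the adult 37.2% and 28.05%.

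Fzd4 went the other way by level. In E18.5 EC it stood at 13.9 (10.97 to 17.3) with Gja4 and 18.4 (16.5 to 20.4) without, a ratio of 0.755 (0.583 to 0.968). The adult levels were 10.04 (8.28 to 12.1) and 13.8 (11.8 to 15.9), which gave 0.730 (0.572 to 0.929). Cells with Gja4 were deeper, with medians of 109 against 70 molecules in E18.5 EC and 145 against 94 in the adult, and per cell the ratios became 1.19 and 1.01. Cells with Gja4 thus had a lower share of Fzd4 among their panel molecules but no fewer Fzd4 molecules per cell in these 2 libraries. After thinning, Fzd4 was seen in 8.36% of cells with Gja4 and 8.98% without in E18.5 EC. The adult shares were 5.16% and 7.04%, and in both libraries the intervals overlapped. In the marrow of E18.5, 3 molecules with Gja4 and 35 without gave 0.400 (0.0788 to 1.27).

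The number of Fzd6 molecules per Fzd4 molecule differed between cells with and without Gja4 in each library. It was 9.35 with Gja4 and 4.28 without in sorted ECs, 18.3 and 3.69 in marrow of E18.5, and 9.26 and 4.46 in the adult. The total of panel molecules does not enter this value.

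Fzd4 was higher in cells with Stab1. In E18.5 EC its level was 18.4 (16.6 to 20.3) in 2334 cells with Stab1 and 10.4 (7.09 to 14.6) in 365 without, a ratio of 1.77 (1.23 to 2.62). Adult cells had it at 14.05 (12.4 to 15.9) in 1272 with Stab1 and 5.31 (3.59 to 7.59) in 407 without, a ratio of 2.64 (1.81 to 3.997). The marrow cells of E18.5 had it at 12.1 (7.97 to 17.6) and 6.44 (3.22 to 11.5), with a ratio of 1.88 (0.901 to 4.19) whose interval includes 1. The adult ratio was 1.51 after thinning. Adult cells without Stab1 had 56453 panel molecules. A group of 63 adult cells led by Vwf and Srgn, low in Stab1, held 15388 panel molecules with 1 of Fzd4. Leaving that group out kept the adult ratio within its counting interval.

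Fzd6 showed no such rise at E18.5, where the ratio with Stab1 was 0.901 (0.798 to 1.02) for sorted ECs and 0.782 (0.579 to 1.06) for marrow cells. In Adult BM cells Fzd6 was at 79.7 (75.7 to 83.8) with Stab1 and 64.1 (57.7 to 71.1) without, a ratio of 1.24 (1.11 to 1.40). That value rested on 63 cells led by Vwf and Srgn, a proteoglycan gene of blood cells, which were endothelial-like by the marker rule. They had 1 molecule of Fzd4 and 3 of Fzd6, and without them the ratio was 0.959. On clustering adult endothelial-like cells again, a matching group of 63 cells had the lowest Kdr of all groups, at 17.5 per 10000. Its Stab1 was at 5.85 and its Srgn at 5037. Whether these cells are endothelial was not tested.

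Where both arterial and sinusoidal markers were set against each other, the genes parted. Cells of E18.5 EC with Gja4 but no Stab1 had Fzd4 at 8.65 (4.32 to 15.5) and Fzd6 at 135 (116 to 157), while cells with Stab1 but no Gja4 had Fzd4 at 19.1 (17.1 to 21.3) and Fzd6 at 79.1 (75.0 to 83.5). The ratios were 0.453 (0.224 to 0.821) for Fzd4 and 1.71 (1.45 to 2.004) for Fzd6. Among adult cells the same ratios were 0.458 (0.283 to 0.710) and 1.33 (1.15 to 1.53). Those of E18.5 BM cells were 0.218 (0.00531 to 1.33), on 1 and 25 molecules, and 2.31 (1.43 to 3.65).

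Vwf gave no common order. In E18.5 EC, Fzd6 was at 101 (95.7 to 107) in 1248 cells with Vwf and 78.1 (73.0 to 83.3) in 1451 without, a ratio of 1.30 (1.19 to 1.41), while that of E18.5 BM cells was 1.69 (1.22 to 2.33). The adult levels were 66.4 (60.6 to 72.7) and 80.1 (75.9 to 84.4), a ratio of 0.830 (0.746 to 0.921). Without the 63 cells led by Vwf and Srgn the adult ratio was 1.03. For Fzd4 the ratios ran 1.06 (0.871 to 1.29), 1.70 (0.781 to 3.49) and, in the adult, 0.673 (0.502 to 0.892), where it was 0.841 without those cells.

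Within cells that had Gja4, the level of Fzd6 with and without a molecule of Vwf was close in 2 of the libraries. In E18.5 EC the level was 132 (121 to 144) in 257 cells with both and 125 (110 to 142) in 172 cells with Gja4 alone, a ratio of 1.06 (0.902 to 1.24). The adult ratio was 1.02 (0.881 to 1.17), while marrow of E18.5 had 1.79 (1.02 to 3.19) on 31 and 24 molecules. Cells with Vwf but no Gja4 stood at 88.6 (82.6 to 94.8) in E18.5 EC and 48.9 (42.5 to 55.9) in the adult. The level in cells with Gja4 alone was 1.41 times (1.22 to 1.64) and 1.90 times (1.63 to 2.22) as high. All adult cells with Vwf but no Gja4 had 43786 panel molecules. The adult group of 63 cells rich in Srgn, with Vwf at 690 and Gja4 at 1.95 per 10000, had 15385, with 1 of Fzd6. Adult values without that group were not computed for this contrast.

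In the clustered class, cells with Apln had less Fzd6 at E18.5. In E18.5 EC, Fzd6 was at 78.8 (74.7 to 83.04) with Apln and 120 (112 to 128) in 810 cells without, a ratio of 0.658 (0.603 to 0.718). E18.5 BM cells had it at 35.6 (29.3 to 42.8) in 301 cells and 90.8 (71.1 to 114) in 105, a ratio of 0.392 (0.289 to 0.535), which turned to 2.16 when cells were gated without clusters. In the adult, where 302 of 1679 cells had Apln, the ratio was 0.927 (0.822 to 1.04). For Fzd4 the intervals included 1 in each library, at 0.8998 (0.729 to 1.12), 0.812 (0.374 to 1.95) and 1.26 (0.944 to 1.66).

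**Figure D2:**
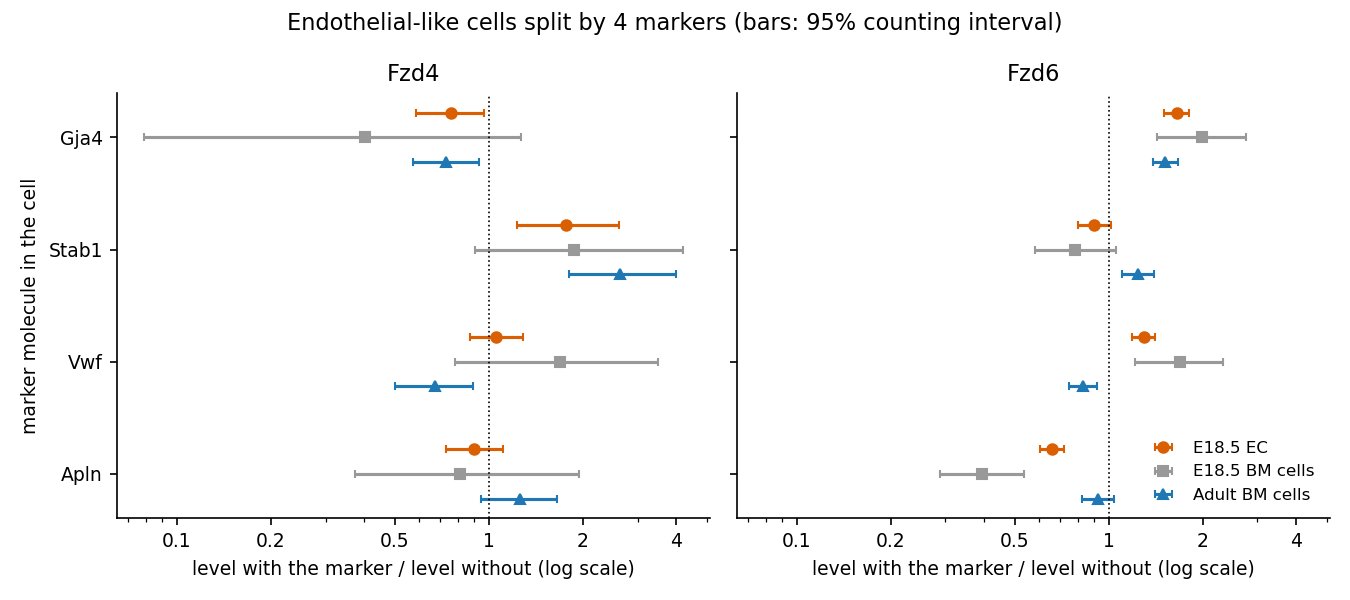
Ratio of the level in endothelial-like cells with a molecule of Gja4, Stab1, Vwf or Apln to the level in those without, on a log axis, for Fzd4 (left) and Fzd6 (right), with 95% counting intervals and a dotted line at 1. With Gja4, Fzd6 lies at 1.65, 1.99 and 1.52 and Fzd4 at 0.755, 0.400 and 0.730; with Vwf, Fzd6 lies above 1 in both libraries of E18.5 and at 0.830 in the adult.

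The splits were sensitive to the class. When cells were gated by at least 2 endothelial marker molecules and no Ptprc, with no clusters, the adult class grew from 1679 to 2874 cells and each of its 8 ratios rose past 2, Fzd4 with Gja4 to 2.98 among them. In marrow of E18.5, where the class also grew, Fzd6 with Apln turned from 0.392 to 2.16 and Fzd6 with Stab1 from 0.782 to 3.02, while Fzd4 moved to 7.65 with Stab1 and 4.39 with Apln and Fzd6 with Gja4 to 1.24. The ratios of E18.5 EC lay between 0.729 and 1.71.

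Subclusters of endothelial-like cells, again built without Wnt genes, gave the same contrast with more range. E18.5 EC held 6. The 274 cells led by Cytl1, Mgp and Gja4, with Gja4 at 1061 per 10000, had the highest Fzd6 at 152 (140 to 165) and Fzd4 at 11.6 (8.42 to 15.6), or 13.1 molecules of Fzd6 per molecule of Fzd4 (9.63 to 18.2). The 138 cells richest in Stab1, at 1602 per 10000, had the highest Fzd4 at 29.6 (21.5 to 39.7) and Fzd6 at 65.2 (52.9 to 79.5), or 2.20 per molecule (1.53 to 3.22). The intervals of these 2 subclusters were apart for both genes.

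The other 4 fell between them on at least 1 gene. The 1024 cells of the largest subcluster, with Stab1 at 854 per 10000, had Fzd4 at 21.6 (18.4 to 25.2) and Fzd6 at 81.0 (74.7 to 87.7), and 371 cells with Stab1 at 922 and Vwf at 615 per 10000 had 20.3 (15.5 to 26.1) and 103 (91.6 to 115). The 302 cells led by Vwf and Fbn1, with Stab1 lower at 259 per 10000, had Fzd4 about as low as the Gja4-rich cells, 11.7 (7.999 to 16.5), and Fzd6 at 110 (97.6 to 123). The 590 cells richest in Apln, at 861 per 10000, had the lowest Fzd6, 54.4 (48.7 to 60.6), with Fzd4 at 13.8 (10.97 to 17.1). The 3 subclusters richest in Stab1 were thus the 3 highest in Fzd4, while Fzd6 was highest with Gja4 and lowest with Apln.

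The adult library held 8 subclusters. Its 335 cells led by Gja4 and Mecom had Fzd4 at 8.81 (6.67 to 11.4) and Fzd6 at 98.0 (90.5 to 106), or 11.1 per molecule (8.47 to 14.9). The 408 cells richest in Stab1, at 818 per 10000, had 21.5 (17.5 to 26.2) and 73.6 (66.02 to 81.8), or 3.42 per molecule (2.73 to 4.32). A further 144 cells led by Alpl and Acta2, with Gja4 at 486 per 10000, had Fzd4 at 7.52 (4.21 to 12.4) and Fzd6 at 83.7 (71.5 to 97.4), also at 11.1 per molecule. The largest subcluster, 451 cells led by Postn, Apln and Kdr, had both genes, at 16.2 (12.99 to 19.9) and 95.03 (87.1 to 104), the latter overlapping that of the cells rich in Gja4. The subcluster of 225 cells led by Tagln, Cytl1 and Vwf had 9.42 (5.90 to 14.3) and 62.1 (52.4 to 73.1). Another 63 cells, led by Ecm1, Srgn and Vwf with Srgn at 5037 per 10000, had 1 molecule of each. The 2 smallest subclusters, of 30 and 23 cells, held 8 and 1 molecules of Fzd4 and 28 and 14 of Fzd6.

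The subclusters of E18.5 BM cells were small. The 36 cells led by Mgp and Gja4 had Fzd6 at 119 (86.3 to 159) and 3 molecules of Fzd4. The 166 cells richest in Stab1, at 265 per 10000, had Fzd6 at 50.3 (39.2 to 63.7) and the 178 led by Apln at 32.5 (24.7 to 41.9). The last subcluster, of 26 cells, had Ptprc in 92.3% of them, with 3 molecules of Fzd4 and 12 of Fzd6.

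**Figure D3:**
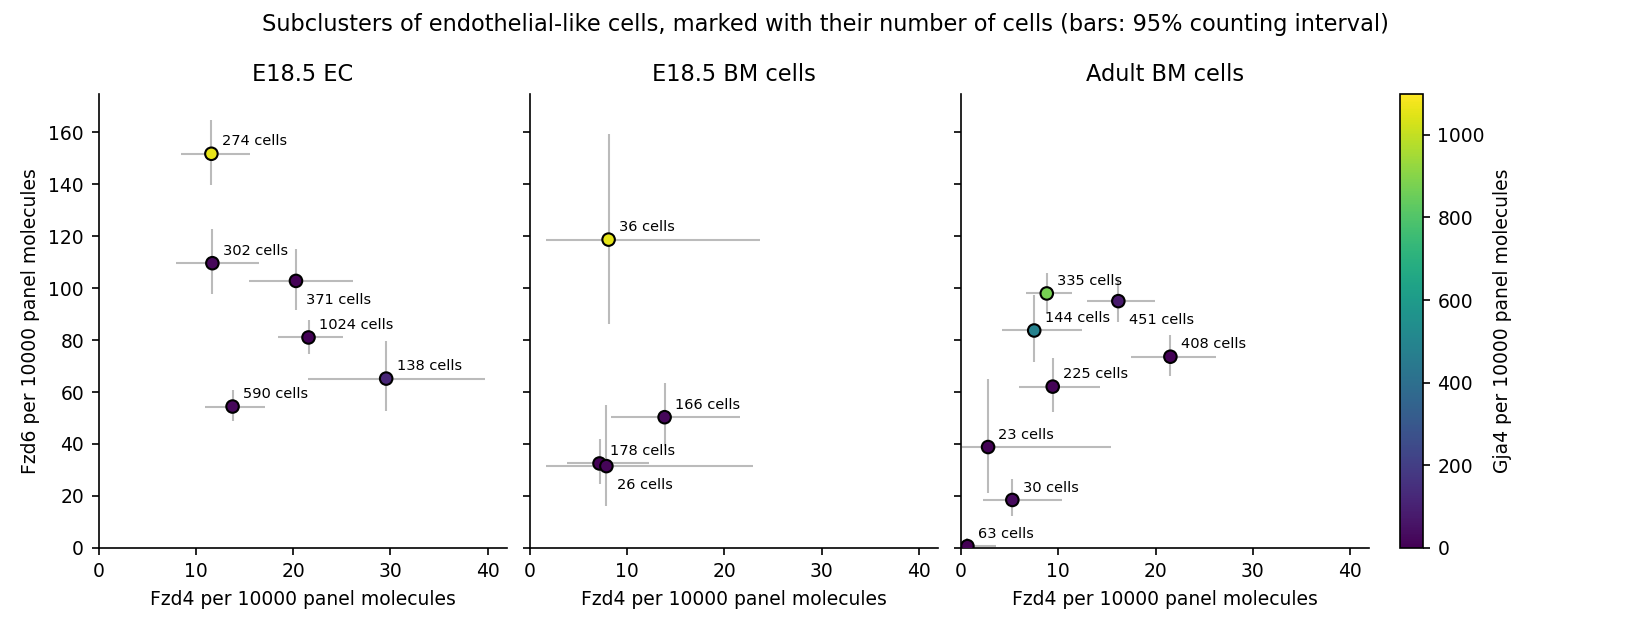
Level of Fzd4 (horizontal) and Fzd6 (vertical), in molecules per 10000 panel molecules, of each endothelial-like subcluster, marked with its number of cells and coloured by its Gja4 level, with 95% counting intervals. The subclusters richest in Gja4 stand at the top left, at 152, 119 and 98.0 for Fzd6, and those richest in Stab1 stand to the right, with Fzd4 up to 29.6.

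Among Ptprc cells the genes differed in kind. Fzd4 was low in all 13 clusters of Ptprc cells of E18.5 BM cells, at 0 to 1.09 per 10000, while Fzd6 ranged from 0.579 to 40.3. The 899 cells led by the osteoclast genes Atp6v0d2, Ctsk and Mmp9 had the lowest Fzd6, 0.579 (0.331 to 0.940), and the 1675 led by Stab1 had 1.13 (0.632 to 1.86). The 1264 cells led by Hlf and Mecom, transcription factor genes of haematopoietic stem cells, had Fzd6 at 20.3 (17.8 to 23.0) and Fzd4 at 1.09 (0.578 to 1.86).

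The highest Fzd6 of these was in 4 clusters led by Alpl, Car3 and Sema3g, of 304, 522, 466 and 1160 cells, at 40.3 (32.9 to 49.0), 34.4 (28.8 to 40.8), 32.2 (27.1 to 38.0) and 24.8 (22.1 to 27.9). Those of 304 and 522 cells overlapped the endothelial-like cluster of the library, at 46.7 (40.2 to 54.0), in their intervals. Fzd4 numbered 1, 1, 0 and 2 molecules in the 4 clusters, so high Fzd6 came without Fzd4 in these clusters. Pecam1 was seen in 0.987%, 57.9%, 99.8% and 61.6% of the cells of these clusters, in the same order. Its relation to Fzd6 was not tested. Ptprc was present in 100%, 65.7%, 100% and 89.2% of their cells. Alpl encodes an alkaline phosphatase, and Sema3g, a secreted semaphorin, is on the arterial marker list.

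Both adult clusters of Ptprc cells had Fzd6, at 12.03 (10.1 to 14.2) in 1047 cells led by Ptprc, Srgn and Hlf and at 18.3 (15.3 to 21.7) in 689 led by Hlf. In the Ptprc cells of E18.5 EC it was at 3.89 to 7.01 over 4 clusters. Fzd4 was at 0.704 to 1.18 in the former and 0 to 1.55 in the latter.

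**Figure D4:**
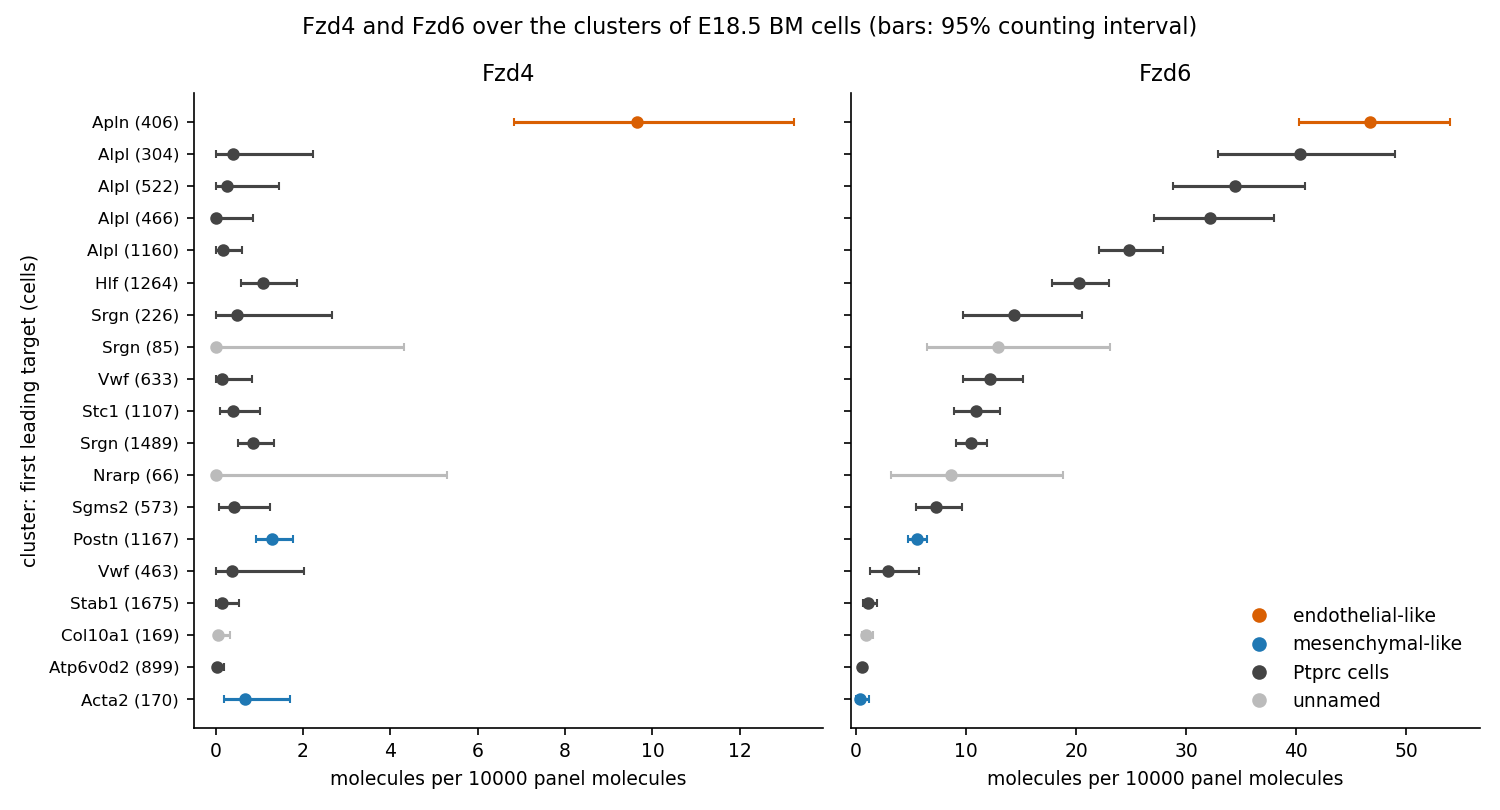
Level of Fzd4 (left) and Fzd6 (right), in molecules per 10000 panel molecules, in each cluster of E18.5 BM cells, named by its first leading target, ordered by Fzd6 and coloured by class, with 95% counting intervals. Fzd4 stands out in the endothelial-like cluster at 9.65, while for Fzd6 the clusters led by Alpl reach 24.8 to 40.3, near the 46.7 of the endothelial-like cluster.

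The rest of the receptor family was read with the same counts. Of 24 Wnt receptors and co-receptors listed, 11 had a molecule, and the counts do not tell whether the rest were outside the panel or not expressed. A receptor was counted as higher or lower at 2-fold between classes that together held at least 20 of its molecules. Against Ptprc cells, 5 of 8 receptors were higher and 1 lower in endothelial-like cells of E18.5 EC, with 42.9% of all targets higher and 27.4% lower. For E18.5 BM cells 2 of 9 were higher and 3 lower, against 30.3% and 38.2% of targets, and for Adult BM cells 3 of 9 and 5, against 44.7% and 28.7%. The median ratio was 3.75, 0.624 and 0.493 for receptors and 1.37, 0.624 and 1.40 for all targets. Against mesenchymal-like cells 2 of 10 were higher and 6 lower in E18.5 BM cells, against 33% and 48.5% of targets, with medians of 0.349 and 0.544. In the adult 3 of 10 were higher and 5 lower, against 47.1% and 37.5%, with medians of 0.639 and 1.52. Fzd4 and Fzd6 were higher in all 5 of these comparisons, which is how they were chosen, and no other receptor was.

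Fzd8 came closest to them, with 39 endothelial-like molecules in E18.5 EC against 1 in Ptprc cells, and 39 against 9 in the adult, a ratio of 3.38 (1.61 to 7.93), while in E18.5 BM cells the ratio was 1.51 (0.178 to 5.82) on 2 and 42 molecules. Fzd3 was higher in E18.5 EC, at 4.50 (2.14 to 10.9), and lower in the adult, at 0.242 (0.123 to 0.450). Lgr4, a receptor for R-spondins, stood at 18.0 in endothelial-like cells of E18.5 EC, 2.99 times (2.38 to 3.79) its level in Ptprc cells, and was within 2-fold of it in the other libraries.

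The other frizzleds were mostly higher outside ECs. Fzd7 was lower in endothelial-like than in Ptprc cells, by ratios of 0.270 (0.219 to 0.330), 0.363 (0.252 to 0.506) and 0.132 (0.103 to 0.166). Fzd9 ratios were 0.530, 0.0938 and 0.0325. Fzd5 was within 2-fold at E18.5, at 1.30 and 0.624, and at 0.493 (0.400 to 0.606) in the adult. Fzd2 had its highest level in mesenchymal-like cells of E18.5 BM cells, 16.9 from 609 molecules, and 1 endothelial-like molecule in each library of E18.5. Lgr5 had 2 or fewer endothelial-like molecules in each library, and the co-receptor gene Lrp5 had 1 molecule in these classes.

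Of the ligands, Ndp, which encodes norrin, was not among the targets with a molecule. The counts do not tell whether it was outside the panel or not expressed. The Wnt ligands with the most molecules in endothelial-like cells were Wnt2 with 363, Wnt5b with 82 and Wnt9b with 66 in E18.5 EC. The adult ones were Wnt5b with 345, Wnt9a with 49 and Wnt4 with 30. In the endothelial-like class from marrow of E18.5, Wnt11 and Wnt9a had 3 molecules each. Wnt10a had 1 there, and so did Wnt5b.

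The targets whose pattern was most like each gene were found over the 42 clusters of at least 50 cells, among 105 targets with at least 100 molecules. The clusters share libraries, depth and composition, and the Spearman correlations are given as a description. For Fzd4 they were Igfbp7 (0.79), Kdr (0.79), Cdh13 (0.77), Gja4 (0.75) and Mecom (0.74). These values run over clusters of all classes. Within endothelial-like cells the level of Fzd4 was lower with Gja4 in E18.5 EC and in the adult. Kdr encodes VEGF receptor 2, Igfbp7 a secreted growth factor binding protein and Cdh13 a cadherin. For Fzd6 they were Nrarp (0.83), Sema3g (0.80), Apc (0.74), Dvl1 (0.70) and Pecam1 (0.69). Nrarp encodes a feedback regulator of Notch and Wnt signalling, while Apc and Dvl1 encode parts of the β-catenin pathway downstream of frizzleds. The correlation of Fzd4 with Fzd6 was 0.54, the 20th highest for Fzd4 and the 12th for Fzd6.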

How the data were processed

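Targeted single-cell RNA sequencing (BD Rhapsody) was available for 3 libraries, 1 per group, taken from the sample labels. The authors used the BD Targeted Rhapsody Analysis Pipeline, version 1.8 per the file headers and another version per the methods of the study. It aligned reads to the panel's amplicons, called cells and corrected molecular identifiers. The labels name mm10, and transcript identifiers in the files matched GENCODE M21 of GRCm38. The deposited values are counts of reads and molecules per cell and amplicon, with no normalization by the authors. Files list only amplicons with a read, and several animals were pooled, so p-values across samples could not be had.

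DBEC-adjusted molecule counts were used, summed over amplicons. Cells needed 20 molecules and 5 targets, and intervals are exact Poisson, Clopper-Pearson and, for ratios, conditional binomial. Each library was clustered by itself on 65 targets, with 60 Wnt, niche factor and cell cycle targets left out (11 principal components, 20 nearest neighbours, Leiden resolution 0.5, 10 iterations, seed 1). Classes were named from marker lists, with at least 3 markers and the lead among the first 10 targets. Clusters led by Ptprc took no other name, and unnamed clusters with Ptprc in over 50% of cells became Ptprc cells. Endothelial-like cells were clustered again. No doublet caller was run. The interval and ratio formulas were run on simulated Poisson totals. These held no cells, classes or spread between cells, so the class ratios themselves were not tested. Python 3.11.15, numpy 2.4.6, pandas 2.3.3, scipy 1.17.1, scikit-learn 1.9.0, igraph 0.11.9 and matplotlib 3.10.9 were used.

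Genes named are Fzd4, Fzd6, every Wnt receptor measured, the 4 split markers, Ndp and the 3 Wnt ligands with most molecules in endothelial-like cells of each library, and the 5 targets most correlated with each frizzled. Leading targets are named to identify clusters, and some are not reported here. The members, markers and lists were chosen with earlier results of these data known. The alternatives changed the molecule count, depth, denominator, clustering, classes and marker threshold, and 3 were added after the clusters had been seen.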

Additional observations from a re-analysis of the deposited data

Results flagged for a closer look

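Fzd6 lay on opposite sides of 1 in the Vwf split, at 1.30 in E18.5 EC and 0.830 in Adult BM cells, with intervals that did not overlap. The difference between the libraries was not tested, and without the 63 adult cells led by Vwf and Srgn the adult value was 1.03.

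Cells that took no class also held molecules of both genes. In E18.5 EC these were 33 of Fzd4 and 179 of Fzd6, all in 331 cells led by Ccn3 and Cdh13 that had endothelial markers at 4316 per 10000, with levels of 12.005 (8.26 to 16.9) and 65.1 (55.9 to 75.4). In E18.5 BM cells there were 33 molecules of Fzd6 in 320 cells. In Adult BM cells there were 17 of Fzd4 and 214 of Fzd6 in 723 cells, of which 191 of Fzd6, at 3.43 per 10000 (2.96 to 3.95), were in 281 cells led by Prg4, the gene of the joint lubricant lubricin.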

How the results depend on the processing

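Of 466 values under alternatives for 34 ratios, 389 stayed within the counting interval of the value reported and 77 lay outside it. In 16 the ratio lay on the other side of 1, and in 8 of these the interval of the value reported excluded 1. No value moved with endothelial-like cells with Ptprc left out, 20 principal components, Leiden resolution 1.0, cells of at least 50 molecules, or the cluster led by Ccn3 counted as endothelial-like. The last, the setting without the cluster led by Vwf and Srgn and that without the mesenchymal-like cluster with Pecam1 were chosen after seeing the data. Leaving out a replicate was not possible with 1 library per group. No paired analysis was possible because each group holds 1 library. Causes of the shifts were not tested.

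For the ratio to Ptprc cells, values are given in the order E18.5 EC, E18.5 BM cells, Adult BM cells. RSEC gave 3.79, 14.3 and 6.42 for Fzd4 and 3.37, 3.13 and 4.09 for Fzd6. Raw molecules gave 6.06 and 7.11 for Fzd4 in E18.5 EC and the adult, and 6.63, 3.16 and 4.50 for Fzd6. Gates gave 8.52 and 4.25 for Fzd4 in the marrow libraries, and 62.2, 1.66 and 1.804 for Fzd6. Per cell the values were 11.1 for Fzd4 in E18.5 EC, and 8.32, 3.38 and 7.02 for Fzd6. Thinning gave 42.8 for Fzd4 in E18.5 EC. Without the most abundant target, Fzd6 was at 18.8 in sorted ECs and 3.12 in marrow of E18.5.

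For the ratio to mesenchymal-like cells of E18.5 BM cells, Fzd4 was at 2.89 with gates and 2.91 per cell, and Fzd6 at 6.88 with RSEC, 7.62 raw, 3.38 with gates and 3.59 per cell. In the adult Fzd4 was at 10.8 with RSEC, 15.4 raw, 14.4 thinned, 12.2 with gates, 5.15 per cell and 57.4 without the cluster with Pecam1, and Fzd6 at 14.0, 25.6, 50.2, 41.8, 13.5 and 285.

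Of the marker splits whose interval excluded 1, those that changed side were, per cell, Fzd4 with Gja4 at 1.19 in E18.5 EC and 1.01 in the adult. With gates they were, in the adult, Fzd4 with Gja4 at 2.98 and with Vwf at 2.09 and Fzd6 with Vwf at 2.40, and Fzd6 with Apln at 2.16 in E18.5 BM cells. Without the cluster led by Vwf and Srgn, adult Fzd6 was at 0.959 with Stab1 and 1.03 with Vwf, and moved to 1.36 with Gja4. Splits whose interval included 1 also changed side, with gates Fzd6 with Stab1 at 1.03 in sorted ECs and 3.02 in marrow of E18.5, Fzd4 with Apln at 4.39 in E18.5 BM cells and Fzd6 with Apln at 2.28 in the adult. Others were Fzd4 with Apln at 1.29 raw and 1.12 per cell in E18.5 BM cells, adult Fzd6 with Apln at 1.02 per cell, and Fzd4 with Vwf at 0.904 from 2 molecules in E18.5 EC. Gates also moved Fzd4 with Stab1 to 7.65 and Fzd6 with Gja4 to 1.24 and with Vwf to 2.36 in E18.5 BM cells.

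Splits that moved in E18.5 EC were Fzd6 with Apln at 0.728 with RSEC, 0.729 with gates and 0.722 per cell, Fzd6 with Gja4 at 2.03 thinned, 2.59 per cell and 1.81 from 2 molecules, and, per cell, Vwf at 1.39 for Fzd4 and 1.70 for Fzd6. In the adult, thinning gave Fzd4 with Stab1 at 1.51 and Fzd6 with Stab1 at 1.09 and with Apln at 0.752. Gates gave Fzd4 with Stab1 at 12.4 and with Apln at 3.02, and Fzd6 with Gja4 at 4.46, and with Stab1 at 8.34. Per cell Fzd6 was at 2.10 with Gja4 and 0.973 with Vwf, and from 2 molecules it was at 0.734 with Vwf.

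Depth limits Fzd4 in particular, which had 38 endothelial-like molecules in E18.5 BM cells, so that its splits there rest on 3 to 35 molecules a side.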
